A study of Homo sapiens with 6 samples.

Results

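The genes described here are the semaphorins, plexins, neuropilins, ephrins, Eph receptors, Slits, Robo receptors and netrins, measured by RNA sequencing in HT-1080, a human fibrosarcoma cell line. The rule picks genes by symbol and by being listed as protein-coding and reads no measured value, although the families themselves were proposed with earlier results of these data known. They number 59 of the 26286 genes in the deposited tables. The study has 6 libraries in 3 groups of 2, all from HT-1080 cells treated for 48 h: DMSO as the vehicle, palbociclib at 2 µM, or pimasertib at 500 nM. Palbociclib inhibits CDK4 and CDK6, the kinases that act with D cyclins in G1, and pimasertib inhibits MEK1 and MEK2, which activate ERK. Each drug was given alone, at 1 dose and 1 time. The labels number the replicates without naming separate cultures, so every p-value covers the spread between these libraries and that spread may be technical. The RNA came from bulk cultures, in which fewer cells of a kind and less RNA per cell cannot be told apart.

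These families were named for steering axons, and they also act between other cells in contact or near each other, including tumour, stromal and vessel cells. Semaphorins are ligands. Class 3 members are secreted and bind neuropilins, which pass the signal through A plexins or PLXND1, whereas classes 4 to 6 span the membrane, class 7 is held by a lipid anchor, and most of these bind plexins directly. Plexins carry a GTPase-activating domain on the inner side of the membrane and act on small GTPases and the actin skeleton. Ephrins are membrane-bound ligands of the Eph receptor tyrosine kinases and can signal back into the cell that carries them. Slits are secreted ligands of Robo receptors, and netrins are secreted, laminin-related ligands of DCC and UNC5 receptors.

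Library totals ran from 13607490 to 17500655 counts, and 3 counts corresponded to 0.168 to 0.220 CPM (counts scaled to library size after TMM normalization). The labels were checked with genes whose response to the drugs is known. Of 13 tested genes of ERK output, 11 fell in pimasertib, and all 12 tested proliferation genes fell in both drugs. Of all tested genes, 11.7% fell in pimasertib and 2.44% in palbociclib. FOSL1 of the ERK list also fell in palbociclib, with a log2 fold change of -1.29 (SE 0.25, edgeR quasi-likelihood test, adjusted p = 0.0174). That call was lost in 4 of the fits with a single library left out. With single libraries left out, the fall of MCM5 in palbociclib was lost in 5 of 6 fits (adjusted p up to 0.133), and in pimasertib CCNA2 (0.184), TOP2A (0.185) and CDK1 (0.153) were lost without pimasertib replicate 2, the first pair also without DMSO replicate 1 (0.0709 and 0.0875). Of 10 markers of mesenchymal cells, 8 had a mean above 1 CPM. The list summed to 3729 and 5499 CPM in DMSO, 5408 and 7436 CPM in palbociclib and 10318 and 13827 CPM in pimasertib. SPARC was the largest, at 860 to 10377 CPM over the libraries, so the sums follow this gene in large part. They do not show that the markers rose as a set, and the part of this rise in the results was not tested. Of 10 neuron markers only TUBB3, SNAP25 and SYT1 had a mean above 1 CPM. That list summed to 7.24 to 13.3 CPM in single libraries, and STMN2, ELAVL3 and NEFL had no reads listed. The endothelial markers PECAM1 and ERG had none either, although TIE1 reached 130 to 341 CPM. Of 8 epithelial markers, 4 were above a mean of 1 CPM, led by KRT8, and of 8 leukocyte markers LCP1 alone was. The 2 libraries of a group differed in one direction for most of these genes. Of 51 guidance genes tested, 45 were higher in replicate 2 than in replicate 1 in DMSO, 41 in palbociclib and 43 in pimasertib, with medians of 0.55, 0.41 and 0.33 on the log2 scale, against medians of -0.03, 0.02 and -0.01 for all tested genes. The share of counts from 13 mitochondrial genes was also higher in replicate 2 of each group, at 5.67% against 3.21% in DMSO, 6.31% against 4.57% in palbociclib and 8.76% against 4.25% in pimasertib. A fit with a term for the replicate number was run, and its calls are given below. Beyond that fit, the part of both shifts in the results was not tested.

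The guidance genes with the highest levels in DMSO were receptors, with SEMA7A the one ligand among the first 6. Levels are compared between genes only per length, as the deposited FPKM (fragments scaled by gene length and library total). NRP1, a co-receptor for class 3 semaphorins and VEGF, had the highest mean level at 306 ± 67.0 FPKM (SD, n = 2). EPHA2, a receptor for A ephrins, followed at 208 ± 78.7 FPKM, and then came the lipid-anchored ligand SEMA7A at 115 ± 45.1 FPKM, PLXNA1 at 113 ± 38.3 FPKM, PLXNB2 at 113 ± 30.2 FPKM and EPHB2 at 65.5 ± 21.6 FPKM. Within each DMSO library NRP1 was above EPHA2, at 258 against 152 FPKM in replicate 1 and 353 against 264 FPKM in replicate 2. With 2 libraries per group, this order was not tested. SEMA7A, PLXNA1 and PLXNB2 could not be ordered among themselves. In pimasertib the first places went to PLXNB2 at 197 ± 41.3 FPKM, NRP1 at 151 ± 17.3 FPKM, EPHB2 at 101 ± 11.1 FPKM and NRP2 at 93.0 ± 13.8 FPKM. EPHA2 was at rank 7, SEMA7A at rank 12, and PLXNA4 went from rank 10 to rank 36.

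**Figure D1:**
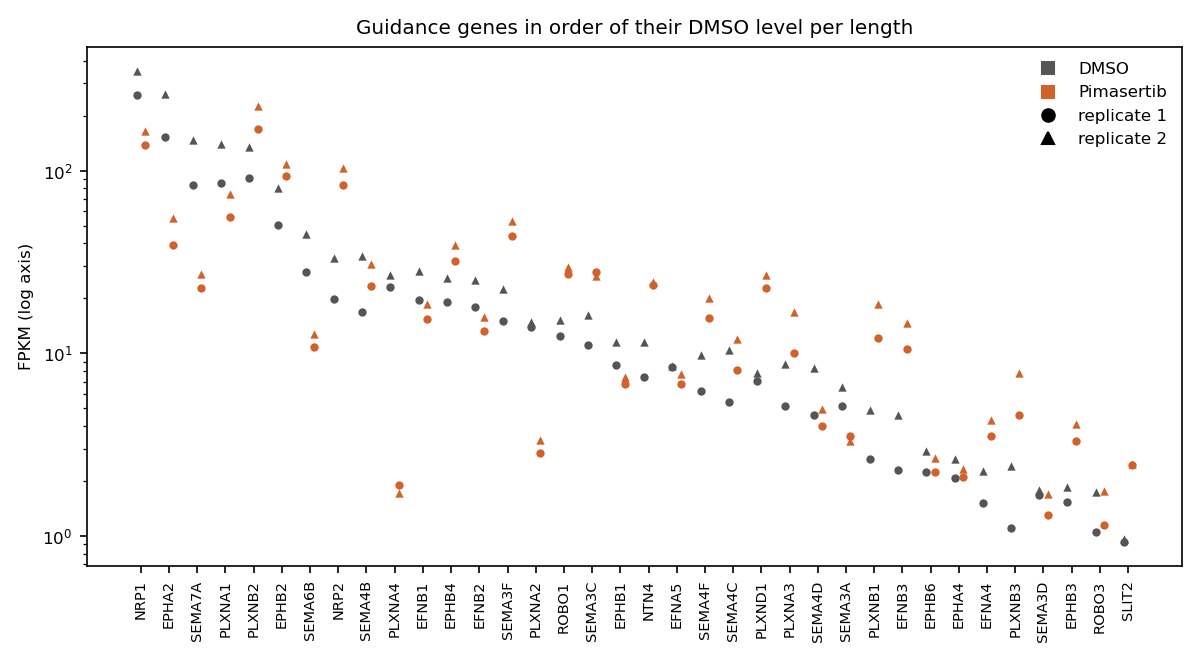
Guidance genes in order of their mean level per length in DMSO, with FPKM on a log axis, for the 36 genes highest in DMSO; points are single libraries of DMSO (grey) and pimasertib (orange). The orange points of PLXNA4, PLXNA2, EPHA2, SEMA7A and SEMA6B lie below the grey ones, and those of NRP2, SEMA3F, PLXND1, PLXNB1 and EFNB3 lie above them.

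Of the 59 genes, 51 had enough counts to be tested. The 8 others were EFNA2, EPHA5, EPHA6, EPHA10, NTN5, SEMA3E, SEMA4A and SEMA5B, none above 0.84 CPM in any library. EPHA3, SEMA3G, ROBO2, SLIT3, NTN1 and NTN3 passed the filter with low counts in at least 2 of the 3 groups. A gene is said to rise or fall only where its adjusted p in the edgeR quasi-likelihood test, over all 14839 tested genes, was below 0.05. Each fit was repeated without each library in turn, and a call of a guidance gene that was lost in such a fit is given with the library and its adjusted p. Calls of guidance genes with no such remark passed in all 6 of those fits.

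Palbociclib lowered 1 of the 51 tested guidance genes, PLXNA2, and raised none, where 3.54% of all tested genes were called, 2.44% as lower. Without adjustment, 10 of the 51 had a p under 0.05, against 18.0% of all tested genes, and DESeq2 called 2 of the 51. The second gene in DESeq2 was EPHA2. With a term for the replicate number in the model, 19 of the 51 were called, 10 higher and 9 lower. EPHA2, PLXNA4 and SEMA5A were among these 19, and 2953 of all 14839 tested genes were called in that fit. The labels do not say that the replicate numbers mark shared cultures, so the term was left out of the reported count. The count was 0 without palbociclib replicate 1 and 0 without palbociclib replicate 2. It was 3 without DMSO replicate 1, all lower (EPHA2, PLXNA2 and SEMA4D), and 4 without DMSO replicate 2, with PLXNA2 lower and SEMA4G, SEMA6C and SEMA6D higher. In these 4 fits 3.65%, 2.56%, 2.48% and 5.06% of all tested genes were called, in that order.

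Pimasertib changed 23 of the 51 against DMSO, 45.1%, where 22.8% of all tested genes were called. Of these, 16 rose and 7 fell, against 11.1% of all tested genes that rose and 11.7% that fell. The median log2 fold change was 0.71 over the 51 genes and 0.00 over all tested genes. The genes that rose were SEMA3C, SEMA3F, SEMA4F, SEMA4G, SEMA5A, SEMA6C, SEMA6D, NRP2, PLXNB1, PLXNB3, PLXND1, EPHB3, EFNB3, SLIT2, ROBO1 and NTN4. Those that fell were SEMA3A, SEMA6B, SEMA7A, NRP1, PLXNA2, PLXNA4 and EPHA2. Without pimasertib replicate 2, the count was 10, with 5 in each direction, where 7.43% of all tested genes were called. It was 17 without pimasertib replicate 1 (12 higher and 5 lower, against 10.5% of all tested genes), 17 without DMSO replicate 1 (8 higher and 9 lower, against 12.5%) and 27 without DMSO replicate 2 (22 higher and 5 lower, against 25.7%). The split between rises and falls thus differed with the DMSO library left out. NRP2, PLXNB1, PLXND1, SEMA5A and SLIT2, which rose, and EPHA2, PLXNA2, PLXNA4, SEMA6B and SEMA7A, which fell, passed in every leave-one-out fit. The share of all tested genes that passed in every such fit was not computed for any comparison.

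Pimasertib against palbociclib gave 15 of the 51 genes, 10 higher and 5 lower in pimasertib, where 9.39% of all tested genes were called, 5.07% as higher and 4.31% as lower. Higher in pimasertib were EFNB3, EPHB3, NRP2, PLXNB1, PLXNB2, PLXND1, ROBO1, SEMA3F, SEMA4F and SEMA5A, and lower were PLXNA2, PLXNA4, SEMA3A, SEMA6B and SEMA7A. Leaving out pimasertib replicate 1 gave 7, where 3.63% of all tested genes were called, and leaving out pimasertib replicate 2 gave 4, where 3.09% were. The split between higher and lower differed with the library left out, and without palbociclib replicate 1 fewer genes were higher than lower. EPHB3, NRP2 and PLXNA4 passed in every leave-one-out fit. Both drugs were compared with the same DMSO libraries, and the 2 comparisons with pimasertib share its libraries, so the values of a gene that passed in more than 1 comparison are given side by side and not as agreement. The authors' deposited tables, made with their own test, call 2 guidance genes in palbociclib, EPHA2 and PLXNA2, both lower, where 4.86% of their genes with an adjusted p are called. For pimasertib the authors' deposited table calls 27, 19 higher and 8 lower, where 22.5% are called, and these include all 23 above with EPHA3, PLXNA1, PLXNA3 and PLXNB2 in addition.

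**Figure D2:**
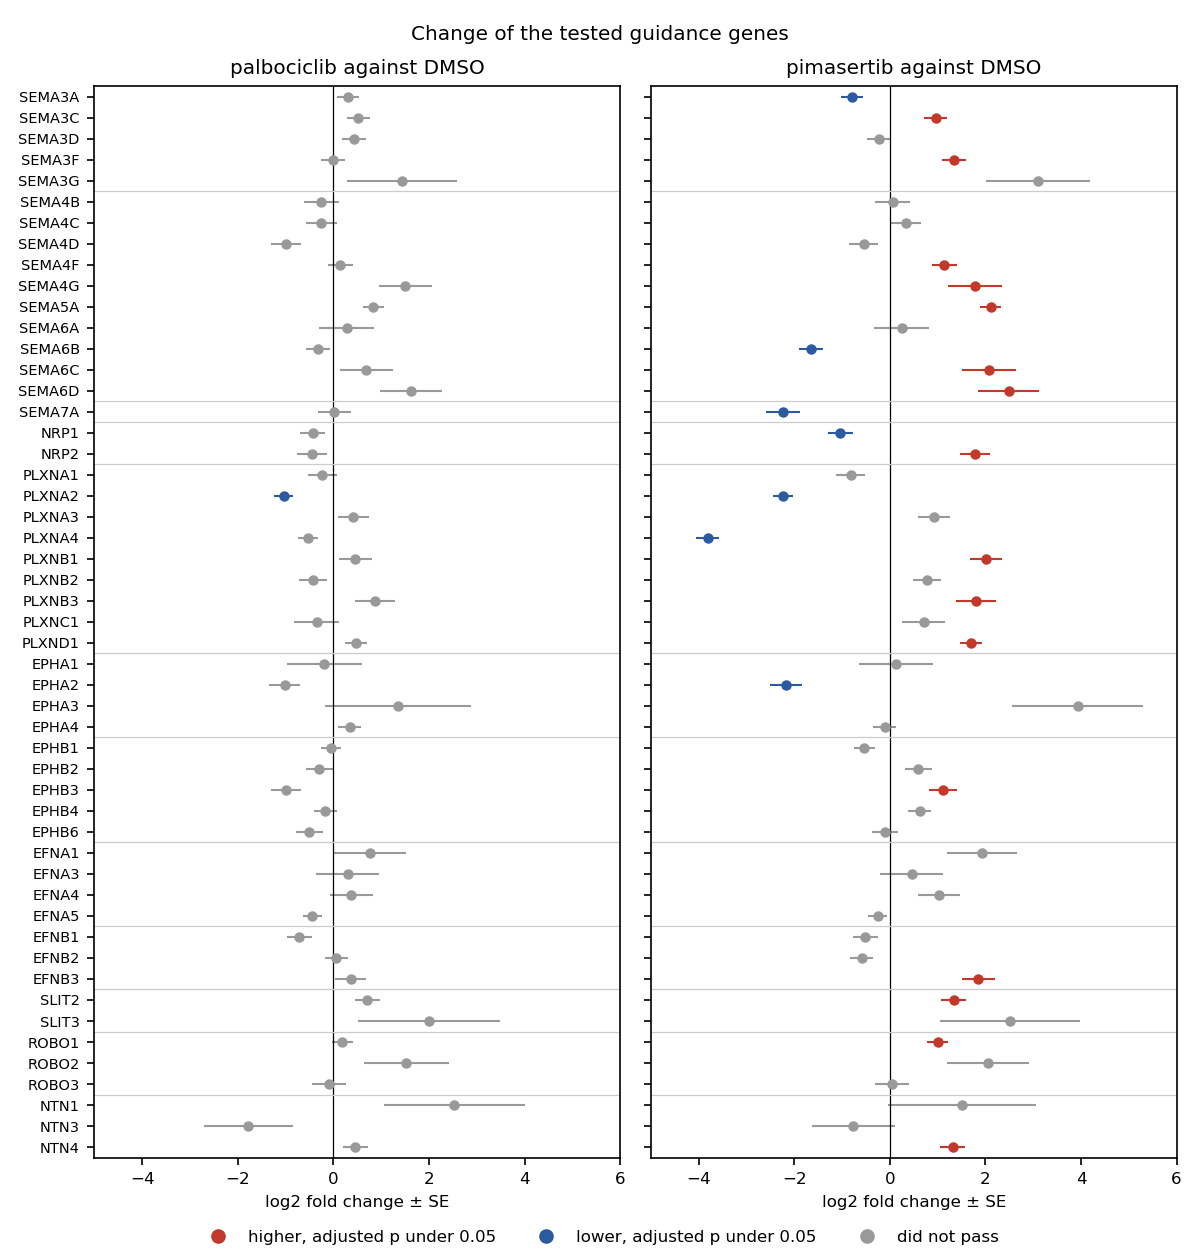
Log2 fold change (± SE) of the 51 tested guidance genes in palbociclib (left) and pimasertib (right), each against DMSO, grouped by family; red and blue mark an adjusted p under 0.05. On the left only PLXNA2 is coloured, and on the right 16 genes are red and 7 blue, with PLXNA4 farthest to the left at -3.81.

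The promoter sequences of 4 genes whose change in pimasertib held in every leave-one-out fit are shown so that a reader can see what precedes their starts. They are the 250 bases before the RefSeq start (GRCh38.p14), 5′ to 3′ in the direction of the gene, for PLXNA4 and EPHA2, which fell, and NRP2 and PLXND1, which rose. Capitals mark GGGCGG or its reverse complement, the core letters bound by SP1 family factors. The windows are chr7:132576471-132576720 (minus strand) for PLXNA4, chr1:16156070-16156319 (minus) for EPHA2, chr2:205682251-205682500 (plus) for NRP2 and chr3:129606677-129606926 (minus) for PLXND1.
PLXNA4: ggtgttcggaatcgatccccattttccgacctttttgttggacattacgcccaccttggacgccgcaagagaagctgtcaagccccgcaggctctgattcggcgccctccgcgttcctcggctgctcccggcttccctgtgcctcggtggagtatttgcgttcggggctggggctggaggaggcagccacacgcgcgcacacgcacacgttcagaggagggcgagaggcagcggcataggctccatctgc
EPHA2: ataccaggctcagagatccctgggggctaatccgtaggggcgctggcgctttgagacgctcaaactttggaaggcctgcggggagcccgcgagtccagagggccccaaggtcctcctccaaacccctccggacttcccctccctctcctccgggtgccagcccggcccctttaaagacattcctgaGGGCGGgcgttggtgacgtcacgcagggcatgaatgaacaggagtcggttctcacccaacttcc
NRP2: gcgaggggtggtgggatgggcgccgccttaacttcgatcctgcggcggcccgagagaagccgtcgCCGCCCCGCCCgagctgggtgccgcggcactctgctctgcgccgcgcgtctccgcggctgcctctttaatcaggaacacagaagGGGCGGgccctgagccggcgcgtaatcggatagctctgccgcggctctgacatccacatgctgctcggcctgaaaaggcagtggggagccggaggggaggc
PLXND1: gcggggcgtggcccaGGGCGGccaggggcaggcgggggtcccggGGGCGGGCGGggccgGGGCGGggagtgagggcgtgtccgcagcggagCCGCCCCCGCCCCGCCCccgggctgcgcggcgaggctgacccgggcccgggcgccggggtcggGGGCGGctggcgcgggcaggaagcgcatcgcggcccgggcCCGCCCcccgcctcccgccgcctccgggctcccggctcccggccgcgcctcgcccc
The 4 windows hold 0, 1, 3 and 9 matches in that order, and their G and C content is 63.6%, 63.2%, 70.0% and 88.8%. They do not stand for the other genes that held against DMSO. Of those that fell, PLXNA2 has 3 matches and SEMA7A has 3 and 4 in its 2 windows, and SEMA6B has no entry. Of those that rose, PLXNB1 has 0 and 5 in its 2 windows, SEMA5A has 7 and SLIT2 has 5. The number of matches was not tested against the direction of change.

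A promoter entry was found for 51 of the 59 genes, with 77 windows in all, since some genes have several starts. The genes without an entry were EFNB3, EPHA10, NRP1, NTN1, NTN3, SEMA3A, SEMA6A and SEMA6B. GGGCGG was found in 70.1% of the 77 windows and in 42.6% of the 35116 windows of all genes, searched on both strands. Within the family, 15 of 24 windows of genes that rose in pimasertib held it, 4 of 5 of those that fell, and 28 of 33 of tested genes that did not pass. By gene, it was in at least 1 window of 14 of 15 that rose, 3 of 4 that fell and 22 of 25 that did not pass. NRP1, SEMA3A and SEMA6B, which also fell, are missing here. With so few genes that fell, the directions were not compared by a test. The AP-1 letters TGANTCA, where N is any base, were in 1.30% of the guidance windows (only PLXNC1) and 6.57% of all. The ETS letters CCGGAAG were in 3.90% (PLXNB1 and SEMA4B) and 8.52% of all. TTTCGCG or TTTCCCG, bound by E2F factors, was in 3.90% and 4.68%, and the cell cycle element TTTGAA in 5.19% and 13.3%. No motif's letters lie within another's, and a match is only a description of the sequence.

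In pimasertib the balance of the neuropilins moved from NRP1 toward NRP2, the co-receptor best known for SEMA3F and VEGFC. NRP1 (ENSG00000099250, GRCh37 chromosome 10, 33466420 to 33625190, minus strand) stood at 1546 and 2113 CPM in DMSO, 1306 and 1419 CPM in palbociclib and 802 and 975 CPM in pimasertib. Both pimasertib libraries lay below the other 4. NRP1 fell in pimasertib, with a log2 fold change of -1.04 (SE 0.26; adjusted p = 0.0174), a call lost without DMSO replicate 2 (adjusted p = 0.0739), pimasertib replicate 1 (0.128) or pimasertib replicate 2 (0.0817). NRP2 (ENSG00000118257, chromosome 2, 206546714 to 206662857, plus strand) stood at 134 and 225 CPM in DMSO, 104 and 160 CPM in palbociclib and 544 and 694 CPM in pimasertib. Both pimasertib values were above the other 4, while the palbociclib and DMSO libraries overlapped. NRP2 rose in pimasertib against DMSO, with a log2 fold change of 1.78 (SE 0.32; adjusted p = 0.0034), and against palbociclib, with 2.23 (SE 0.32; adjusted p = 0.00175). A pseudogene on the same strand, AC007362.1, overlaps NRP2 and averaged 30.8 CPM, against 310 CPM for NRP2. Per length, NRP1 was 13 and 10.6 times NRP2 in DMSO, 14.3 and 10.0 times with palbociclib, and 1.67 and 1.59 times with pimasertib. The summed neuropilin level was 278 and 386 FPKM in DMSO, 238 and 271 FPKM in palbociclib and 222 and 266 FPKM in pimasertib, so the drug groups overlapped each other and lay below DMSO.

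Among the secreted semaphorins SEMA3A fell and SEMA3C and SEMA3F rose in pimasertib. SEMA3A, an NRP1 ligand first known as a factor that collapses growth cones, was at 29.5 and 37.7 CPM in DMSO, 35 and 47.6 CPM in palbociclib and 19.5 and 18.9 CPM in pimasertib. Its pimasertib libraries were the lowest 2 of the 6. The log2 fold change was -0.80 (SE 0.23; adjusted p = 0.0305) against DMSO, lost without DMSO replicate 2 (adjusted p = 0.116), pimasertib replicate 1 (0.115) or pimasertib replicate 2 (0.164). Against palbociclib it was -1.10 (SE 0.23; adjusted p = 0.0136), lost without palbociclib replicate 2 (adjusted p = 0.0523), pimasertib replicate 1 (0.0961) or pimasertib replicate 2 (0.129). SEMA3F, the NRP2 ligand, was at 58.5 and 87.2 CPM in DMSO, 67.5 and 78.3 CPM in palbociclib and 163 and 205 CPM in pimasertib. Both palbociclib values fell between the DMSO values, and the pimasertib values lay above all of them. SEMA3F rose in pimasertib, with a log2 fold change of 1.34 (SE 0.25; adjusted p = 0.00436), a call lost without pimasertib replicate 2 (adjusted p = 0.0531). Against palbociclib the value was 1.34 (SE 0.25; adjusted p = 0.00765), also lost without pimasertib replicate 2 (adjusted p = 0.0917). SEMA3C was at 58.6 and 85.6 CPM in DMSO, 92.3 and 114 CPM in palbociclib and 140 and 140 CPM in pimasertib, so the groups did not overlap. Its rise in pimasertib, a log2 fold change of 0.96 (SE 0.24; adjusted p = 0.0168), was lost without DMSO replicate 1 (adjusted p = 0.123), pimasertib replicate 1 (0.0791) or pimasertib replicate 2 (0.0935). SEMA3D, at 8.01 to 15.7 CPM over the 6 libraries, did not pass in either drug. SEMA3G was at 0.122 and 0.135 CPM in DMSO and 1.21 and 1.10 CPM in pimasertib, where both DMSO values lie under the level of 3 counts, and it did not pass (adjusted p = 0.0636). Together the class 3 genes made up 18.5% and 15.5% of the semaphorin FPKM in DMSO, 23.0% and 18.3% with palbociclib, and 45.4% and 41.9% with pimasertib. The summed semaphorin level was 179 and 304 FPKM in DMSO, 192 and 299 FPKM in palbociclib and 169 and 203 FPKM in pimasertib.

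PLXNA2 and PLXNA4, plexin receptors for class 3 and class 6 semaphorins, fell in pimasertib, while PLXNB1, PLXNB3 and PLXND1 rose. PLXNA4 (ENSG00000221866, chromosome 7, 131808091 to 132333447, minus strand) was at 322 and 377 CPM in DMSO, 251 and 234 CPM in palbociclib and 25.9 and 23.9 CPM in pimasertib. The 3 groups did not overlap, and pimasertib was far below both others. PLXNA4 had the largest fall of the 51 genes, with a log2 fold change of -3.81 (SE 0.24; adjusted p = 1.07e-05) against DMSO, and it also fell against palbociclib, with -3.28 (SE 0.23; adjusted p = 4.08e-05). In palbociclib against DMSO it was -0.53 (SE 0.21; adjusted p = 0.221), which did not pass. PLXNA2 (ENSG00000076356, chromosome 1, 208195587 to 208417665, minus strand) was at 162 and 173 CPM in DMSO, 83.2 and 80.1 CPM in palbociclib and 31.9 and 38.9 CPM in pimasertib. The groups were apart in that order, and the libraries of a group lay close together. PLXNA2 fell in palbociclib, with a log2 fold change of -1.04 (SE 0.20; adjusted p = 0.0196), a call lost without palbociclib replicate 1 (adjusted p = 0.0637) or palbociclib replicate 2 (0.112). In pimasertib it fell by 2.24 on the log2 scale (SE 0.21; adjusted p = 9.88e-05). Pimasertib was also lower than palbociclib, with -1.21 (SE 0.21; adjusted p = 0.00458), lost without pimasertib replicate 1 (adjusted p = 0.0712).

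The other A plexins did not pass in either drug. PLXNA1, the most abundant of them, was at 793 and 1292 CPM in DMSO, 781 and 994 CPM in palbociclib and 497 and 684 CPM in pimasertib. PLXNA3 was at 35.5 and 59.9 CPM in DMSO, 49.9 and 77.5 CPM in palbociclib and 66.9 and 115 CPM in pimasertib. In both genes the pimasertib and DMSO libraries did not overlap, and the share of all tested genes for which this holds was not computed. The adjusted p against DMSO was 0.074 for PLXNA1 and 0.0698 for PLXNA3.

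B plexins are receptors for class 4 semaphorins and, for PLXNB3, of SEMA5A. PLXNB1 (ENSG00000164050, chromosome 3, 48445261 to 48471594, minus strand), a receptor of SEMA4D, was at 19.6 and 36.3 CPM in DMSO, 30.4 and 46.3 CPM in palbociclib and 86.6 and 138 CPM in pimasertib. Its pimasertib libraries were above all others, and the DMSO and palbociclib libraries overlapped. PLXNB1 rose in pimasertib, with a log2 fold change of 2.01 (SE 0.34; adjusted p = 0.00283). It was also higher than with palbociclib, by 1.55 (SE 0.34; adjusted p = 0.0171), lost without palbociclib replicate 1 (adjusted p = 0.073) or pimasertib replicate 2 (0.203). PLXNB3 was at 7.17 and 15.8 CPM in DMSO, 14.5 and 27.4 CPM in palbociclib and 28.8 and 50.8 CPM in pimasertib, and the DMSO libraries differed from each other by more than a factor of 2. It rose in pimasertib, with a log2 fold change of 1.80 (SE 0.42; adjusted p = 0.0134), which was 2.47 without DMSO replicate 2, and the call was lost without DMSO replicate 1 (adjusted p = 0.0837) or pimasertib replicate 2 (0.145). PLXNB3 shares its span with SRPK3 and the antisense gene U52111.14, at 1.44 and 2.98 CPM. PLXNB2, the most abundant B plexin, was at 592 and 870 CPM in DMSO, 457 and 628 CPM in palbociclib and 1050 and 1464 CPM in pimasertib. It passed only in pimasertib against palbociclib, with a log2 fold change of 1.21 (SE 0.30; adjusted p = 0.0286), and this was lost without palbociclib replicate 1 (adjusted p = 0.191), pimasertib replicate 1 (0.0712) or pimasertib replicate 2 (0.262). Against DMSO its adjusted p was 0.08.

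PLXND1 (ENSG00000004399, chromosome 3, 129274018 to 129325661, minus strand), a receptor of SEMA3E and, with neuropilins, of other class 3 ligands, was at 51.3 and 56.7 CPM in DMSO, 62.5 and 86.6 CPM in palbociclib and 158 and 192 CPM in pimasertib. The pimasertib libraries were well above the other 4. It rose in pimasertib, with a log2 fold change of 1.70 (SE 0.23; adjusted p = 0.000842), and against palbociclib, with 1.23 (SE 0.23; adjusted p = 0.00784), the latter lost without palbociclib replicate 1 (adjusted p = 0.0667) or pimasertib replicate 2 (0.0866). PLXNC1, the plexin that binds SEMA7A, stayed between 1.32 and 3.86 CPM and did not pass in either drug. SEMA3E, the ligand of PLXND1, had 1 read in 1 library.

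The shares of the plexin classes set pimasertib apart from both other groups. A plexins made up 55.6% and 56.0% of the plexin FPKM in DMSO, 57.8% and 54.4% with palbociclib, and 25.4% and 25.6% with pimasertib. B plexins made up 41.2% and 41.6% in DMSO, 37.9% and 40.9% with palbociclib and 66.2% and 67.2% with pimasertib. The summed level was 230 and 340 FPKM in DMSO, 206 and 272 FPKM in palbociclib and 279 and 376 FPKM in pimasertib. DMSO overlapped both drugs in this sum, and the palbociclib libraries lay just below those of pimasertib. These shares are within a library, so they do not depend on how libraries were scaled to each other.

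**Figure D3:**
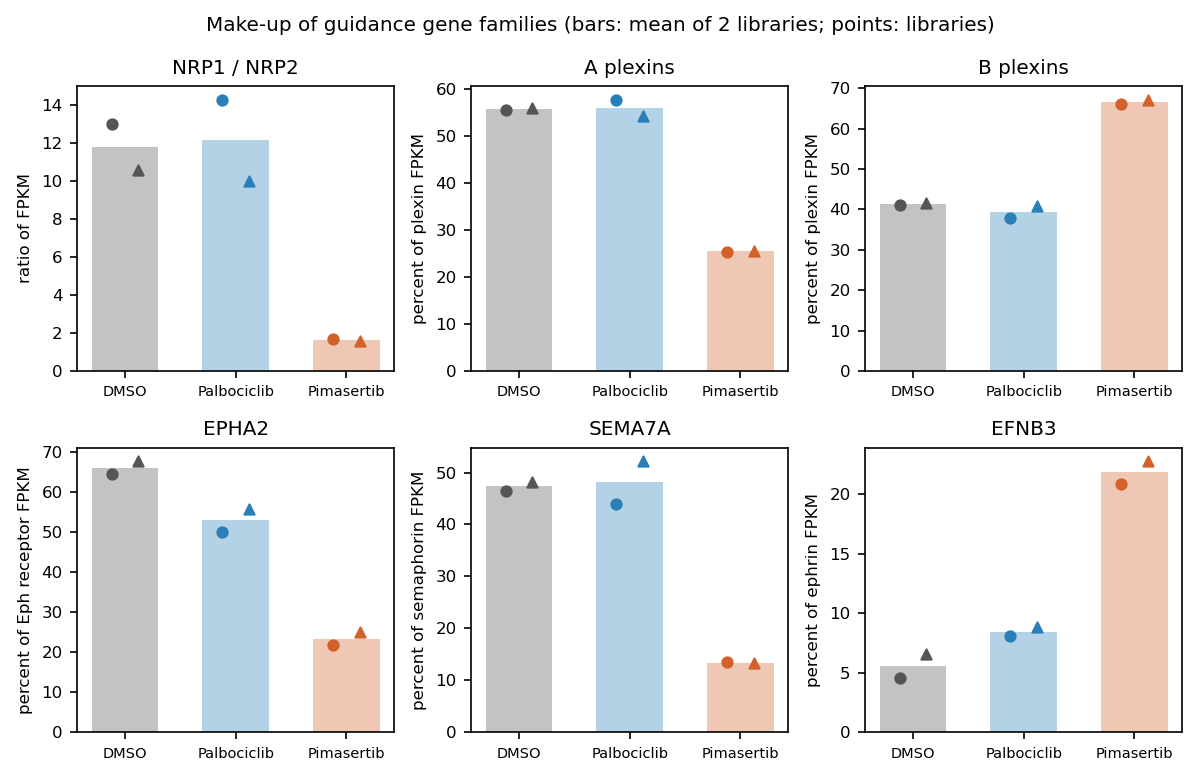
Ratio of NRP1 to NRP2 and percent of family FPKM taken by A plexins, B plexins, EPHA2, SEMA7A and EFNB3; bars are the mean of 2 libraries and points single libraries (circle, replicate 1; triangle, replicate 2). In all 6 panels the pimasertib points lie apart from the other 4, with the NRP1 to NRP2 ratio at 1.67 and 1.59 against at least 10.0 elsewhere.

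Among the membrane-bound semaphorins, SEMA7A (ENSG00000138623, chromosome 15, 74701630 to 74726808, minus strand), the lipid-anchored ligand of integrin beta-1 and PLXNC1, was at 329 and 581 CPM in DMSO, 329 and 595 CPM in palbociclib and 86.6 and 107 CPM in pimasertib. The palbociclib values spanned the range of the DMSO values, and both pimasertib values were far below. SEMA7A fell in pimasertib, with a log2 fold change of -2.23 (SE 0.36; adjusted p = 0.00188), and stood at 0.02 (SE 0.34; adjusted p = 0.982) in palbociclib. Against palbociclib, pimasertib was lower by a log2 fold change of -2.25 (SE 0.36; adjusted p = 0.00294), lost without pimasertib replicate 1 (adjusted p = 0.0677) or pimasertib replicate 2 (0.0516). SEMA7A made up 46.5% and 48.2% of the semaphorin FPKM in DMSO, 44.0% and 52.2% with palbociclib, and 13.5% and 13.4% with pimasertib.

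SEMA6B, a ligand of A plexins, also fell in pimasertib. It was at 113 and 182 CPM in DMSO, 113 and 124 CPM in palbociclib and 42.2 and 51.7 CPM in pimasertib. Its pimasertib libraries were the lowest 2, and 1 DMSO library lay above the other values. The log2 fold change was -1.65 (SE 0.26; adjusted p = 0.00177) against DMSO and -1.34 (SE 0.26; adjusted p = 0.00918) against palbociclib, the latter lost without pimasertib replicate 1 (adjusted p = 0.112) or pimasertib replicate 2 (0.0725).

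Of the 10 tested class 4 to 6 genes, 5 rose in pimasertib and SEMA6B alone fell. SEMA5A, a thrombospondin-repeat semaphorin and ligand of PLXNB3, was at 8.26 and 7.51 CPM in DMSO, 15.2 and 13.2 CPM in palbociclib and 33.7 and 34.5 CPM in pimasertib. The 3 groups were apart in that order, and the libraries within a group were close. It rose in pimasertib, with a log2 fold change of 2.11 (SE 0.22; adjusted p = 0.000203), and in palbociclib stood at 0.84 (SE 0.22; adjusted p = 0.0692), which did not pass. Between the drugs it was higher in pimasertib by 1.27 (SE 0.22; adjusted p = 0.00452), lost without pimasertib replicate 2 (adjusted p = 0.053). SEMA4F was at 27.3 and 42.7 CPM in DMSO, 34.5 and 42.9 CPM in palbociclib and 66.3 and 88.2 CPM in pimasertib. It rose in pimasertib by a log2 fold change of 1.14 (SE 0.26; adjusted p = 0.0119), lost without DMSO replicate 1 (adjusted p = 0.0632) or pimasertib replicate 2 (0.113). Against palbociclib it was 0.99 (SE 0.26; adjusted p = 0.0391), lost without palbociclib replicate 1 (adjusted p = 0.175), pimasertib replicate 1 (0.0816) or pimasertib replicate 2 (0.309).

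SEMA4G, SEMA6C and SEMA6D rose from low levels and rest on fewer counts. SEMA4G was at 0.851 and 3.72 CPM in DMSO, 5.06 and 7.78 CPM in palbociclib and 6.17 and 9.44 CPM in pimasertib. Its log2 fold change in pimasertib was 1.78 (SE 0.56; adjusted p = 0.0439), and it was 1.07 without DMSO replicate 1 (adjusted p = 0.155) and 3.18 without DMSO replicate 2. The call was also lost without pimasertib replicate 1 (adjusted p = 0.093), without pimasertib replicate 2 (0.259), and with a filter that kept only genes averaging 50 counts (0.0613). SEMA4G overlaps MRPL43 on the opposite strand, which averaged 39.6 CPM, and no source used here says whether the counting kept to 1 strand. SEMA6C was at 1.40 and 5.34 CPM in DMSO, 3.30 and 7.39 CPM in palbociclib and 11.6 and 16.8 CPM in pimasertib. Its log2 fold change of 2.08 (SE 0.56; adjusted p = 0.0234) was 1.40 without DMSO replicate 1 (adjusted p = 0.0603) and 3.33 without DMSO replicate 2, and the call was lost without pimasertib replicate 1 (0.07) or pimasertib replicate 2 (0.172). SEMA6D, a ligand of PLXNA1, was at 0.425 and 1.49 CPM in DMSO, 2.57 and 3.25 CPM in palbociclib and 3.0 and 7.76 CPM in pimasertib. Its log2 fold change of 2.49 (SE 0.64; adjusted p = 0.02) was 1.84 without DMSO replicate 1 (adjusted p = 0.0701), 3.63 without DMSO replicate 2 and 1.66 without pimasertib replicate 2 (adjusted p = 0.227). In all 3 genes both pimasertib values were above both DMSO values, and the DMSO libraries differed severalfold between themselves. SEMA4B, SEMA4C, SEMA4D and SEMA6A did not pass in any comparison.

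**Figure D4:**
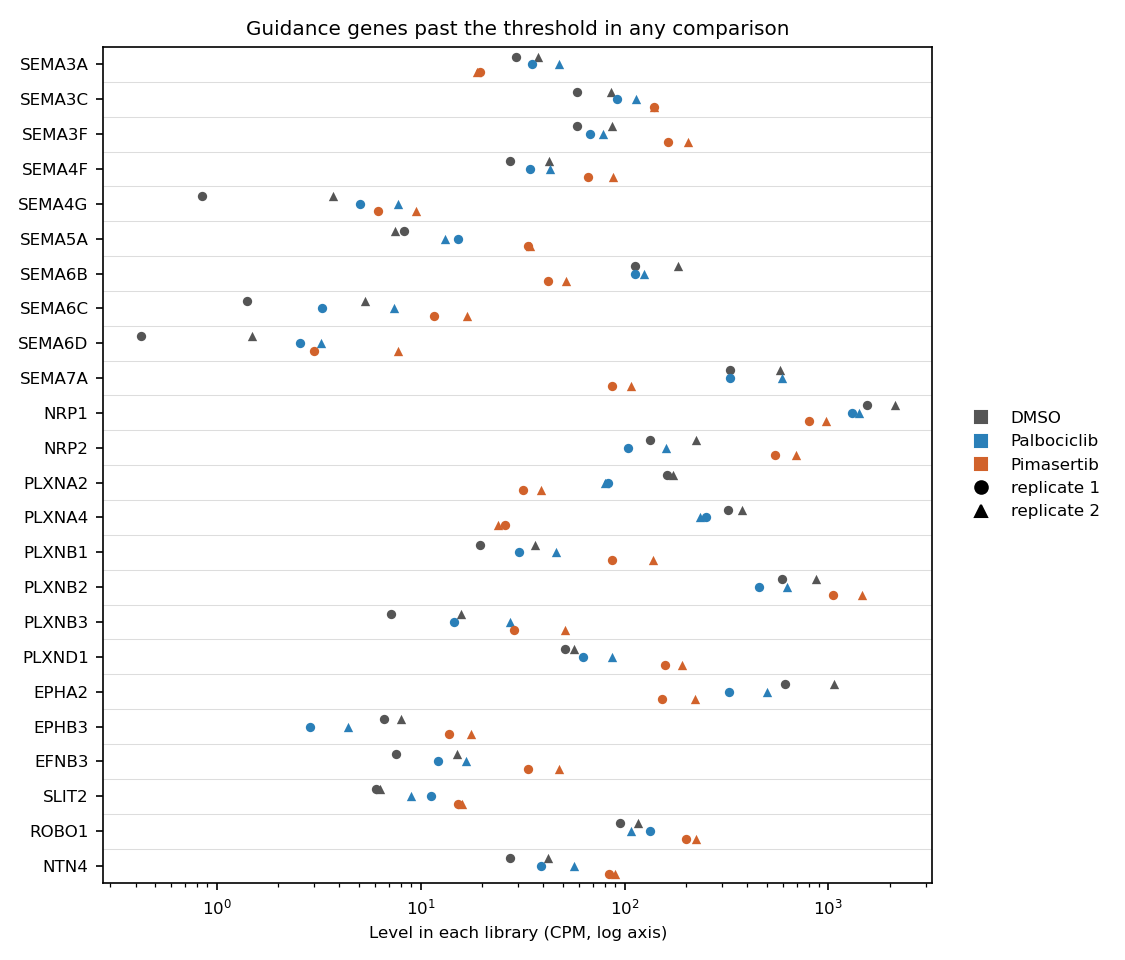
Level of the 24 guidance genes past the threshold in any comparison, in CPM on a log axis, in each of the 6 libraries (grey DMSO, blue palbociclib, orange pimasertib; circle replicate 1, triangle replicate 2). Blue and grey points overlap for genes such as SEMA7A and SEMA3F. They lie apart for others, such as EPHA2, EPHB3, PLXNA4 and SEMA4G. PLXNA2, at 83.2 and 80.1 CPM in palbociclib, is the gene whose blue points differ from the grey ones past the threshold in the reported fit.

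EPHA2 was the leading Eph receptor in DMSO and EPHB2 in pimasertib. EPHA2 (ENSG00000142627, chromosome 1, 16450832 to 16482582, minus strand) was at 615 and 1064 CPM in DMSO, 325 and 501 CPM in palbociclib and 152 and 221 CPM in pimasertib. The groups did not overlap, with palbociclib between the other two. EPHA2 fell in pimasertib, with a log2 fold change of -2.17 (SE 0.34; adjusted p = 0.00179). It did not pass in palbociclib, at -1.02 (SE 0.33; adjusted p = 0.134), or between the drugs, at -1.15 (SE 0.33; adjusted p = 0.059). The authors' deposited table does call it lower in palbociclib. EPHA2 made up 64.4% and 67.7% of the Eph receptor FPKM in DMSO, 50.1% and 55.8% with palbociclib, and 21.8% and 25% with pimasertib.

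EPHB2, a receptor for B ephrins, was at 237 and 382 CPM in DMSO, 222 and 285 CPM in palbociclib and 424 and 512 CPM in pimasertib. Its pimasertib libraries were the highest 2, with a log2 fold change of 0.60 against DMSO (SE 0.28; adjusted p = 0.148), which did not pass. EPHB4 was at 97.8 and 134 CPM in DMSO, 96.7 and 109 CPM in palbociclib and 158 and 200 CPM in pimasertib, and it did not pass either (log2 fold change 0.63 against DMSO; SE 0.24; adjusted p = 0.0804). EPHB4 overlaps SLC12A9 on the opposite strand, which averaged 82.4 CPM. EPHB3 was the EphB gene that passed. It was at 6.62 and 7.98 CPM in DMSO, 2.86 and 4.42 CPM in palbociclib and 13.8 and 17.7 CPM in pimasertib, with palbociclib lowest and pimasertib highest. Against palbociclib it was higher in pimasertib by a log2 fold change of 2.10 (SE 0.31; adjusted p = 0.00218). Against DMSO it rose by 1.11 (SE 0.30; adjusted p = 0.0246), lost without DMSO replicate 1 (adjusted p = 0.122), pimasertib replicate 1 (0.0646) or pimasertib replicate 2 (0.186). EPHB3 overlaps EIF2B5 on the same strand, which averaged 79.3 CPM. EphB genes together made up 34.5% and 31.6% of the Eph receptor FPKM in DMSO, 47.8% and 42.7% with palbociclib, and 76.6% and 73.6% with pimasertib. The summed Eph receptor level was 237 and 390 FPKM in DMSO, 164 and 231 FPKM in palbociclib and 179 and 220 FPKM in pimasertib. A larger share is thus not by itself a higher level. The EphB genes had log2 fold changes of -0.99 to -0.05 in palbociclib, and none passed there.

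EPHA3 had 40 and 29 counts in the pimasertib libraries, 10 and 0 under palbociclib and 0 and 4 under DMSO, and it did not pass (adjusted p = 0.0638). EPHA4, at 13 to 20.6 CPM, and EPHB1, at 31.2 to 54.6 CPM, did not pass in any comparison, nor did EPHA1 and EPHB6.

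Among the ephrins only EFNB3 passed. It was at 7.53 and 15.1 CPM in DMSO, 12.2 and 16.6 CPM in palbociclib and 33.5 and 47.6 CPM in pimasertib. The DMSO and palbociclib libraries overlapped, and both pimasertib libraries were above them. EFNB3 rose in pimasertib, with a log2 fold change of 1.85 (SE 0.34; adjusted p = 0.00388), lost without pimasertib replicate 2 (adjusted p = 0.058). Against palbociclib it was 1.49 (SE 0.33; adjusted p = 0.0184), lost without palbociclib replicate 1 (adjusted p = 0.0652), pimasertib replicate 1 (0.0576) or pimasertib replicate 2 (0.21). The more abundant B ephrins did not rise with it. EFNB1 was at 65.7 and 94.9 CPM in DMSO, 40.6 and 57.6 CPM in palbociclib and 50.3 and 62.9 CPM in pimasertib, and EFNB2, a partner of EPHB4 in vessels, was at 81.3 and 115 CPM in DMSO and 57.7 and 72.1 CPM in pimasertib. Neither passed. EFNB3 made up 4.55% and 6.60% of the ephrin FPKM in DMSO, 8.07% and 8.87% with palbociclib, and 20.9% and 22.8% with pimasertib. The summed ephrin level was 50.5 and 69.7 FPKM in DMSO, 46.9 and 59.4 FPKM in palbociclib and 50.7 and 63.9 FPKM in pimasertib. Of the A ephrins, EFNA5 led at 30.9 to 46.0 CPM, EFNA1, EFNA3 and EFNA4 stayed below 6 CPM, and none of the 4 passed. EFNA3 and EFNA4 overlap on the same strand, and no source used here states how reads in the overlap were counted.

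SLIT2, ROBO1 and NTN4 rose in pimasertib. SLIT2, a secreted Robo ligand, was at 6.02 and 6.29 CPM in DMSO, 11.2 and 8.96 CPM in palbociclib and 15.3 and 16 CPM in pimasertib. The groups did not overlap, and the DMSO libraries were nearly equal. SLIT2 rose in pimasertib, with a log2 fold change of 1.34 (SE 0.26; adjusted p = 0.0048). Its receptor ROBO1 was at 95.0 and 117 CPM in DMSO, 133 and 108 CPM in palbociclib and 200 and 225 CPM in pimasertib. The pimasertib libraries were the highest 2. ROBO1 rose in pimasertib, with a log2 fold change of 1.0 (SE 0.22; adjusted p = 0.0104), lost without DMSO replicate 1 (adjusted p = 0.067) or pimasertib replicate 2 (0.0829). Its value against palbociclib was 0.81 (SE 0.22; adjusted p = 0.0472), lost without any 1 library of the drug groups (adjusted p from 0.0992 to 0.274). NTN4, a basement membrane netrin, was at 27.3 and 42.3 CPM in DMSO, 38.9 and 56.6 CPM in palbociclib and 83.7 and 90.2 CPM in pimasertib. It too was highest in both pimasertib libraries, with a log2 fold change of 1.32 (SE 0.26; adjusted p = 0.00616), lost without pimasertib replicate 2 (adjusted p = 0.0587). ROBO3, at 4.86 to 8.21 CPM, did not pass, nor did ROBO2, SLIT3, NTN1 and NTN3, each at or below 1.85 CPM in every library.

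Receptors and ligands of the same pathways that the symbol rule does not take, ROBO4 among them, were read from a list of 17 genes, 12 of them tested. In pimasertib 1 rose and 3 fell, 33.3% of the 12 against 22.8% of all tested genes, and none passed in palbociclib, where 3.54% of all tested genes did. ROBO4, the Robo gene known from vessels, fell from 71.0 and 85.8 CPM in DMSO to 11.2 and 15.3 CPM in pimasertib, with 69.9 and 73.8 CPM in palbociclib (log2 change in pimasertib of -2.56; SE 0.23; adjusted p = 8.38e-05). DCC, the netrin receptor, was at 14.0 and 16.7 CPM in DMSO, 25.7 and 36.1 CPM in palbociclib and 3.34 and 3.88 CPM in pimasertib. It fell in pimasertib, with a log2 fold change of -2.09 (SE 0.27; adjusted p = 0.000596), and did not pass in palbociclib (1.01; SE 0.25; adjusted p = 0.0545). RGMB fell, with a log2 fold change of -1.02 (SE 0.21; adjusted p = 0.00769; 0.0751 without pimasertib replicate 1), and NTNG2 rose, with 1.29 (SE 0.23; adjusted p = 0.00369). The list's median log2 fold change in pimasertib was -0.17.

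Of 56 genes that carry guidance signals inside the cell, 49 were tested. In palbociclib 2 rose, 4.08% against 3.54% of all tested genes. In pimasertib 6 rose and 6 fell, 24.5% against 22.8% of all tested genes, with a median log2 fold change of 0.02, so the list was called about as often as all genes were. ABLIM1, an actin-binding protein, was at 0.972 and 0.744 CPM in DMSO, 4.47 and 8.23 CPM in palbociclib and 16.1 and 16.2 CPM in pimasertib. It rose in both drugs, with log2 fold changes of 2.88 (SE 0.40; adjusted p = 0.00319) and 4.22 (SE 0.40; adjusted p = 0.0001). RRAS, a small GTPase on which plexins act, was at 27.7 and 26.0 CPM in DMSO, 60.0 and 58.2 CPM in palbociclib and 83.5 and 75.3 CPM in pimasertib. It also rose in both, with 1.14 (SE 0.19; adjusted p = 0.00913) and 1.56 (SE 0.19; adjusted p = 0.000482). KALRN and ENAH, the latter an actin regulator, rose in pimasertib with log2 fold changes of 1.43 and 1.38. DPYSL2, also called CRMP2, a mediator of SEMA3A signals, fell in pimasertib from 159 and 117 CPM to 35.4 and 33.5 CPM (a log2 change of -2.0; SE 0.29; adjusted p = 0.00105). Of the 12 calls in pimasertib, 5 passed in all 6 leave-one-out fits: ABLIM1, RRAS, KALRN, ENAH and DPYSL2. The other 7 were each lost without pimasertib replicate 2, at adjusted p from 0.0755 to 0.226, and 5 of the 7 also without pimasertib replicate 1.

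The last list held 22 co-receptors, sheddases and competing ligands, of which 16 were tested. None passed in palbociclib, where 3.54% of all tested genes did. In pimasertib 3 rose (ERBB2, NRCAM and ADAM17) and 3 fell (PGF, VEGFC and MET), 37.5% of the 16 against 22.8% of all tested genes, with a median log2 fold change of 0.27. PGF, a growth factor that binds neuropilins, was at 41.5 and 69.7 CPM in DMSO, 38.6 and 47.5 CPM in palbociclib and 11.9 and 13.1 CPM in pimasertib. Its fall in pimasertib, with a log2 fold change of -2.15 (SE 0.27; adjusted p = 0.00053), was the only 1 of the 6 calls that passed in every leave-one-out fit. VEGFC, a ligand that NRP2 binds, fell with a log2 fold change of -0.98 (SE 0.24; adjusted p = 0.0169), lost without DMSO replicate 2 (adjusted p = 0.0895), pimasertib replicate 1 (0.114) or pimasertib replicate 2 (0.0879). ERBB2 (adjusted p = 0.198), NRCAM (0.0746), ADAM17 (0.211) and MET (0.129) were lost without pimasertib replicate 2, and all of these but NRCAM also without pimasertib replicate 1 and without DMSO replicate 1 (ERBB2 and ADAM17) or DMSO replicate 2 (MET).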

How the data were processed

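RNA of 6 HT-1080 libraries was sequenced by the submitters. The submitters' processing notes list STAR 2.5, HTSeq 0.6.1, CASAVA and DESeq2, with the builds GRCh37 and hg19. No source used here states the strand setting. The authors deposited a table per drug (23914 and 24931 genes, 26286 in either) with raw counts per gene and FPKM values. The authors' log2 fold changes and their p-values and adjusted p-values, per the file headers, compare each drug with DMSO, and only their adjusted calls were used, with the direction. Counts missing from a table were set to 0, since the DMSO libraries had none there. FPKM served to compare genes within a library and to describe levels, shares, ratios and family sums in each library. No test used FPKM, and its scaling by library total is not the TMM scaling of the CPM values. Gene positions are those of the tables (GRCh37), and promoter windows come from RefSeq (GRCh38.p14).

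Counts were tested with edgeR 4.0.16 (R 4.3.3): filterByExpr (minimum count 10, minimum total 15; 14839 genes kept), TMM scaling, 1 quasi-likelihood model (robust) of 3 groups over 6 libraries, two-sided tests, and Benjamini-Hochberg adjusted p-values (all 14839 genes) called below 0.05. The SE is the log2 fold change divided by the root of F. The procedure was tested on simulated data. Alternatives were other filters and scalings, DESeq2 1.42.0, limma-voom (limma 3.58.1), 4 libraries only, a replicate term, and leaving out each library. Every gene that passed in any comparison is named with its values, and other lists name at most 4 genes a direction. The rule for the members reads no measured value, but the members and lists were chosen with earlier results of these data known. SEMA3B, listed as a processed transcript, was left out of the counts. The level of 3 counts reflects counting error alone, as PCR copies of 1 molecule are not separate observations.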

Additional observations from a re-analysis of the deposited data

How the results depend on the processing

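The 10 guidance genes that held in every leave-one-out fit of pimasertib against DMSO also passed under every other alternative, and 3 did so against palbociclib (EPHB3, NRP2 and PLXNA4). Both other scalings gave 23 calls in pimasertib and 1 in palbociclib, and 15 or 16 between the drugs, and lost none. Of 153 results for single guidance genes, 39 changed sign under an alternative, none of them called in the reported fit or in that alternative. Against the reported fit, DESeq2 called 5 more of the tested guidance genes in pimasertib, and no filter called 6 more between the drugs. The number called in palbociclib was 1 as reported, 6 with no filter, 2 with DESeq2 and 0 to 4 with a library left out; in pimasertib it was 23 and 10 to 27, and between the drugs 15 and 4 to 20. Over all genes, palbociclib gave 526 calls as reported, 1097 with no filter, 858 with DESeq2, 350 with only its 4 libraries and 332 to 751 with a library left out. Pimasertib gave 3376 and 1103 to 3897, and the drugs against each other 1393, 2256 with no filter and 458 to 1988. SEMA7A in palbociclib ranged from -0.43 to 0.49 on the log2 scale with a library left out. The median of all genes moved to 0.113 in pimasertib with no filter. The causes of these differences were not tested.

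Replicate numbers are shared by the groups, and the difference of replicate 2 from replicate 1 correlated across 14839 genes at 0.397 (DMSO and palbociclib), 0.351 (DMSO and pimasertib) and 0.345 (both drugs). With 2 pairs per comparison and no label for a shared culture or day, the numbers were not taken as pairs. With a replicate block, calls of guidance genes were 19 in palbociclib (10 higher and 9 lower, with EPHA2, PLXNA4 and SEMA5A among them), 36 in pimasertib (24 higher and 12 lower) and 31 between the drugs (20 and 11), and calls over all genes 2953, 6551 and 4702.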

Other observations

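SEMA3B matches the symbols of the family but is listed in the tables as a processed transcript and not as protein-coding. It is a class 3 semaphorin gene known as a candidate tumour suppressor in lung. It was at 4.80 and 8.25 CPM in DMSO, 3.30 and 7.17 CPM in palbociclib and 21.8 and 30.7 CPM in pimasertib. Its pimasertib libraries were above the other 4, and it rose with a log2 fold change of 2.01 against DMSO (edgeR quasi-likelihood test, adjusted p = 0.00519) and 2.31 against palbociclib (adjusted p = 0.00455). Without pimasertib replicate 2 both calls were lost, at 1.75 (adjusted p = 0.0715) and 2.04 (adjusted p = 0.0759), and they passed in the other 5 leave-one-out fits.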
